A study of Caenorhabditis elegans with 36 samples.

Results

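Worms handle iron, zinc, copper and cadmium with a small set of storage proteins, chelators and membrane transporters, and 8 genes of that set are described here in aging animals with and without mitochondrial stress. They are the ferritin genes *ftn-1* and *ftn-2*, the metallothionein genes *mtl-1* and *mtl-2*, the divalent metal transporter genes *smf-1* and *smf-3*, and the zinc transporter genes *cdf-2* and *ttm-1*. The 8 were chosen by name among 18949 genes of the deposited expression table, and all 8 were found there and passed the filter on low values. Transcripts of whole wild-type (N2) worms were sequenced after *cco-1* RNAi or with the empty vector control (ev), every 2 days from day 1 to day 11 of adulthood. Each of the 12 combinations of RNAi and day had 3 biological replicates, which makes 36 libraries. *cco-1* codes for part of complex IV of the mitochondrial respiratory chain, and its knockdown is a standard way to provoke mitochondrial stress. By the labels, all worms were kept at 20 °C on RNAi food, *cco-1* bacteria being 50% of what the knockdown worms ate and ev bacteria the rest, and the labels name no other allele or agent. The labels describe the stage of every sample as L4 or young adult, so the days used are those of the sample titles. Each library came from a pool of whole worms, and so a change in RNA per cell and a change in the share of a tissue cannot be told apart. Feeding RNAi lowers a transcript without removing it, and neurons respond weakly to it in N2.

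Ferritin stores iron in a mineral core inside a protein shell. In *C. elegans*, *ftn-1* is expressed mainly in the intestine and is known for its strong dependence on iron, being turned down by the hypoxia factor HIF-1 when iron is scarce and turned up through the intestinal GATA factor ELT-2. *ftn-2* encodes the more abundant and more widely expressed ferritin. SMF-3 is the main importer of dietary iron and is known to be turned up, through HIF-1, under the low iron that turns ferritin down, and SMF-1 imports manganese and other divalent metals. Metallothioneins are small cysteine-rich proteins that bind zinc, copper and cadmium. CDF-2 moves zinc into the lysosome-related gut granules of intestinal cells, where it is stored, and TTM-1 promotes the excretion of zinc. The nuclear receptor HIZR-1 senses high zinc in the intestine and activates *cdf-2*, *ttm-1* and *mtl-1*.

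The values, which the authors call normalized counts, were read from their distribution as counts scaled to a common library total (CPM) and quantile-normalized across libraries, with library sums of 916765 to 953972 and no value at 0, and the read depth is not given. Low values lay on shared levels. If each level is 1 read, the lowest value of *smf-3* in any ev library of day 11 rested on 25 reads and that of *cdf-2* on 19 reads. Differences are log2 fold changes (log2FC) of CPM + 1 from limma over 15713 genes, which understates the change of genes near 1 CPM. A gene was called at a Benjamini-Hochberg adjusted p below 0.05 with an absolute log2FC above 0.5. The *cco-1* transcript itself was lower in *cco-1* RNAi worms at all 6 days without overlap between libraries, with log2FC between -1.57 at day 3 and -0.57 at day 1. Replicates varied more in some groups, with a median log2 SD over genes of 0.105, 0.119 and 0.115 in the *cco-1* RNAi groups at days 5, 9 and 11, against 0.073 to 0.083 in ev groups. The model takes 1 variance for a gene, so that p-values involving the more variable groups may be too small.

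The 8 genes followed different courses with age and RNAi. *mtl-1* was lower in *cco-1* RNAi worms at all 6 days, by the most at day 7. *mtl-2* was higher from day 5 to day 11, and *ftn-1* and *smf-3* were higher at days 9 and 11. *ftn-2* was lower at days 1 and 7 and higher at day 11. The zinc transporters *cdf-2* and *ttm-1* were lower at day 1, and *cdf-2* also at day 5. *smf-1* was called between the RNAi groups at none of the 6 days.

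**Figure D1:**
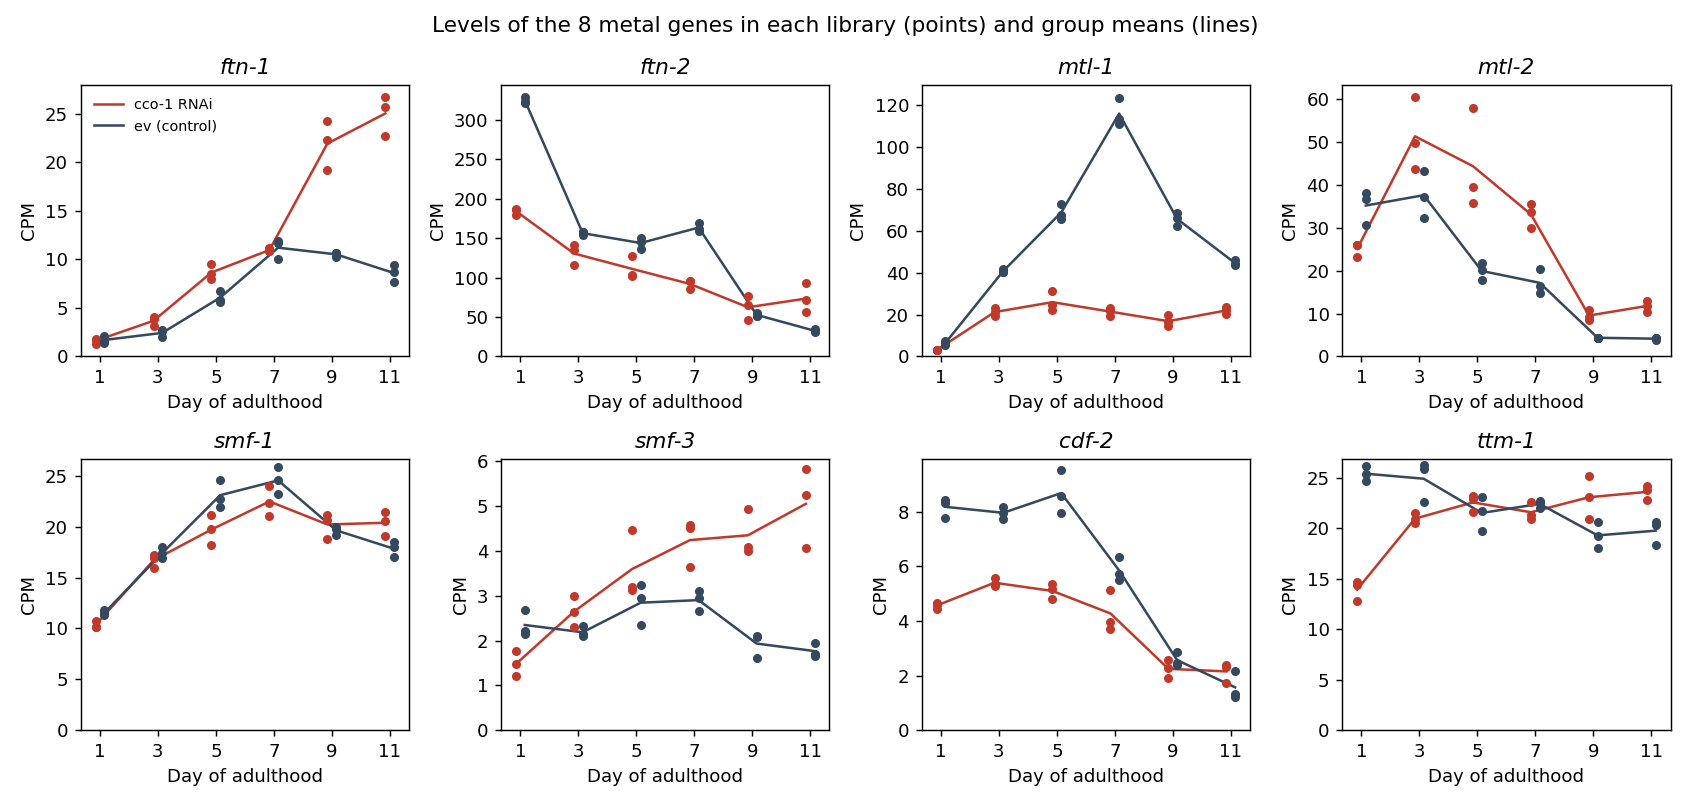
Level in CPM (vertical axis, from 0) against day of adulthood for the 8 genes, with 1 point for each library and lines through the means of 3 libraries, in *cco-1* RNAi worms (red) and ev worms (dark blue). The *mtl-1* points of *cco-1* RNAi worms lie below those of ev worms at every day, and the *ftn-1* curves part after day 7.

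The ferritins were taken first. Per kilobase of exon, *ftn-1* averaged 2.66 ± 0.45 CPM in *cco-1* RNAi worms of day 1 and 2.81 ± 0.68 CPM in ev worms of that day (SD, n = 3 each), above *smf-3* alone among the 8 genes. In CPM it measured 1.7, 1.31 and 1.83 CPM in the *cco-1* RNAi libraries of day 1, against 1.34, 1.62 and 2.15 CPM in ev libraries. At day 7 it measured 10.8, 10.9 and 11.2 CPM in *cco-1* RNAi worms, against 11.9, 10.1 and 11.7 CPM in ev worms. The libraries of the 2 RNAi groups overlapped at both days, with log2FC of -0.04 (limma, standard error 0.11, adjusted p = 0.817) at day 1 and -0.03 (adjusted p = 0.859) at day 7.

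The *ftn-1* levels of the 2 RNAi groups stood apart at days 9 and 11. At day 9 it measured 24.3, 19.2 and 22.4 CPM in *cco-1* RNAi worms, against 10.6, 10.7 and 10.3 CPM in ev worms. At day 11 it measured 26.7, 22.7 and 25.7 CPM in *cco-1* RNAi worms, against 7.68, 8.72 and 9.4 CPM in ev worms. Every *cco-1* RNAi library lay above every ev library at both days. The log2FC was 0.99 (standard error 0.11, adjusted p = 1.72e-09 from limma) at day 9 and 1.44 (adjusted p = 9.66e-14) at day 11. At days 3 and 5 all *cco-1* RNAi libraries also lay above all ev libraries, at 3.12 to 4.08 against 1.97 to 2.69 CPM and at 7.96 to 9.53 against 5.63 to 6.8 CPM, but the log2FC of 0.45 at each day was under the threshold for a call. It passed at day 3 without ev replicate 2 (0.51) or without *cco-1* RNAi replicate 2 (0.54), and at day 5 without ev replicate 2 (0.52) or without *cco-1* RNAi replicate 3 (0.50).

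*ftn-2* had the highest CPM per kb of the 8 genes at day 1, at 283 ± 5.71 in *cco-1* RNAi worms and 499 ± 6.56 in ev worms (SD, n = 3 each), and was lower with age. In CPM it measured 187, 186 and 180.0 CPM in *cco-1* RNAi libraries of day 1, against 321, 330 and 325 CPM in ev libraries. The groups did not overlap, and the log2FC was -0.82 (standard error 0.14, adjusted p = 3.83e-05 from limma). At day 7 it measured 85.5, 95.2 and 95.4 CPM in *cco-1* RNAi worms, against 162, 170 and 159 CPM in ev worms, again without overlap (log2FC -0.82, adjusted p = 1.23e-05).

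At day 11 the order of the *ftn-2* levels was turned round. It measured 92.8, 55.9 and 71.6 CPM in *cco-1* RNAi worms, against 31.6, 34.3 and 32.1 CPM in ev worms. All *cco-1* RNAi libraries lay above all ev libraries, replicate 1 being the highest and replicate 2 the lowest of them, and the log2FC was 1.12 (standard error 0.14, adjusted p = 1.25e-07 from limma). The change of sign lay at day 9, where 76.1, 45.8 and 65.3 CPM in *cco-1* RNAi worms overlapped with 51.5, 55.1 and 51.7 CPM in ev worms (log2FC 0.21, adjusted p = 0.211). At days 3 and 5 the *cco-1* RNAi libraries lay below the ev libraries, at 116 to 141.6 against 154 to 158 CPM and at 103 to 127 against 136 to 150.2 CPM, with log2FC of -0.26 and -0.38 that were not called.

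The *cco-1* RNAi libraries of days 9 and 11, which spread in *ftn-2*, also spread in the summed markers of the intestine and of other tissues. The summed level of 11 intestine marker genes was 675, 398 and 532 CPM in *cco-1* RNAi replicates 1, 2 and 3 of day 11 and 574, 362 and 471 CPM in those of day 9. The order of the replicates was thus the same as for *ftn-2* at both days. *ftn-1* and *cdf-2* also had this order at both days, and *smf-3* had it at day 11 only. *mtl-1*, *mtl-2*, *smf-1* and *ttm-1* had it at neither day. Without *cpr-1*, a cathepsin B gene that gave a large part of the sum, the other 10 markers summed to 283, 220.1 and 254 CPM in these replicates of day 11, against 113 to 129 CPM in ev worms. In ev worms the sum was 152 to 171 CPM at day 11 and 238 to 252 CPM at day 9. At day 1 it was 2151 to 2203 CPM in *cco-1* RNAi worms, against 1698 to 1723 CPM in ev worms, while *ftn-2* was lower in *cco-1* RNAi worms. At day 11, 8 of the 11 markers were higher in *cco-1* RNAi worms and 0 were lower by limma, 3 and 1 at day 1, and no value was at 0. At day 1, 4.63% of all genes were higher and 4.46% lower. Of the markers of other tissues, 6 of 6 for body wall muscle, 5 of 5 for pharynx, 4 of 7 for oocyte and eggshell, 2 of 6 for hypodermis, 2 of 6 for neurons, 1 of 8 for germline and 1 of 6 for sperm were higher at day 11, where 15.1% of all genes were. Of 5 tested embryo markers, 0 were higher and 1 was lower at day 11, where 13.3% of all genes were lower. Among *cco-1* RNAi libraries, the 6 body wall muscle markers summed to 604 to 1127 CPM at day 11 and to 617 to 987 CPM at day 9. The 5 pharynx markers summed to 98.7 to 133 CPM and to 86.4 to 110 CPM at these days. The part of tissue composition in the differences between RNAi groups was not tested.

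Per kilobase of exon, *ftn-1* remained below *ftn-2* in every group but came closer to it with age. Within libraries, the ratio of CPM per kb of *ftn-1* to that of *ftn-2* averaged 0.0094 ± 0.0017 in *cco-1* RNAi worms of day 1 and 0.0056 ± 0.0013 in ev worms of that day (SD, n = 3 each). At day 7 it averaged 0.128 ± 0.0071 in *cco-1* RNAi worms and 0.0739 ± 0.0088 in ev worms, and at day 11 it averaged 0.377 ± 0.064 and 0.283 ± 0.028 in these groups. The ratio was higher in *cco-1* RNAi worms without overlap at all days but day 11, where 0.309 to 0.437 overlapped with 0.261 to 0.315.

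The metallothioneins were both below the ev libraries at day 1, and from day 5 on *mtl-1* was called lower and *mtl-2* higher in *cco-1* RNAi worms. *mtl-1* measured 2.9, 2.95 and 3.2 CPM in *cco-1* RNAi libraries of day 1, against 6.29, 5.48 and 7.42 CPM in ev libraries (log2FC -0.87, adjusted p = 4.34e-09 from limma). At day 7 it measured 21.9, 23.1 and 19.2 CPM in *cco-1* RNAi worms, against 124, 113 and 111 CPM in ev worms. No library of the 2 RNAi groups overlapped at either day, and the day 7 log2FC of -2.39 (standard error 0.098, adjusted p = 4.67e-21) was the largest in size among the 8 genes at any day. At day 11 it measured 20.4, 23.4 and 22.2 CPM in *cco-1* RNAi worms, against 43.5, 46 and 44.3 CPM in ev worms (log2FC -0.99, adjusted p = 1.15e-10).

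At the days between, *mtl-1* was also lower in *cco-1* RNAi worms without overlap, with log2FC of -0.92 at day 3, -1.39 at day 5 and -1.91 at day 9. In ev worms it reached 116 ± 6.73 CPM at day 7 (SD, n = 3) and was lower again at days 9 and 11, whereas from day 3 on the means of *cco-1* RNAi groups stayed between 16.9 and 25.9 CPM. The 5 highest group means of *mtl-1* were thus those of ev worms of days 3 to 11. The summed intestine markers were higher in *cco-1* RNAi worms at these days, though not every marker was. By limma, 3 of the 11 markers were higher and 0 lower at day 3. At each of days 5 and 7, 2 were higher and 2 lower, and at day 9, 5 were higher and 0 lower. Of all genes, 9.36%, 16.7%, 11.6% and 9.44% were higher at days 3, 5, 7 and 9, and 7.92%, 16.6%, 13% and 8.69% lower. The marker counts of days 5 and 7 were near these shares in both directions. The part of tissue composition in the *mtl-1* difference was not tested.

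*mtl-2* measured 26, 25.9 and 23.2 CPM in *cco-1* RNAi libraries of day 1, against 30.6, 38 and 36.8 CPM in ev libraries. All *cco-1* RNAi libraries lay below, but the log2FC of -0.47 (adjusted p = 0.0116 from limma) was not called. It passed the threshold without ev replicate 1 (-0.56). At day 3 the log2FC was 0.44 (adjusted p = 0.0111), also not called, and it passed without ev replicate 1 or *cco-1* RNAi replicate 2 (0.54 each).

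From day 5 on *mtl-2* was higher in *cco-1* RNAi worms. At day 5 it measured 35.8, 57.7 and 39.3 CPM in *cco-1* RNAi worms, against 20.1, 21.8 and 17.8 CPM in ev worms (log2FC 1.09, adjusted p = 9.38e-08 from limma). At day 11 it measured 10.5, 13 and 11.8 CPM in *cco-1* RNAi worms, against 4.31, 3.77 and 4.34 CPM in ev worms (log2FC 1.31, standard error 0.14, adjusted p = 4.8e-09). The libraries of the 2 groups did not overlap at any of days 5 to 11, and at days 7 and 9 the log2FC was 0.92 and 0.97. Both groups had their lowest *mtl-2* levels at days 9 and 11.

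The ratio of *mtl-1* to *mtl-2* shows this divergence within single libraries. In CPM per kb it averaged 0.113 ± 0.014 in *cco-1* RNAi worms of day 1 and 0.171 ± 0.032 in ev worms of that day (SD, n = 3 each), so that *mtl-2* was the more abundant metallothionein transcript in both. At day 7 it averaged 0.609 ± 0.11 in *cco-1* RNAi worms and 6.38 ± 0.77 in ev worms, and the ranges of 0.503 to 0.718 and 5.64 to 7.17 lay on either side of equal levels. At day 11 it averaged 1.75 ± 0.068 in *cco-1* RNAi worms and 10.1 ± 1.1 in ev worms. The ratio was lower in *cco-1* RNAi worms without overlap at all 6 days, the closest being day 1 with 0.104 to 0.128 against 0.134 to 0.191.

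**Figure D2:**
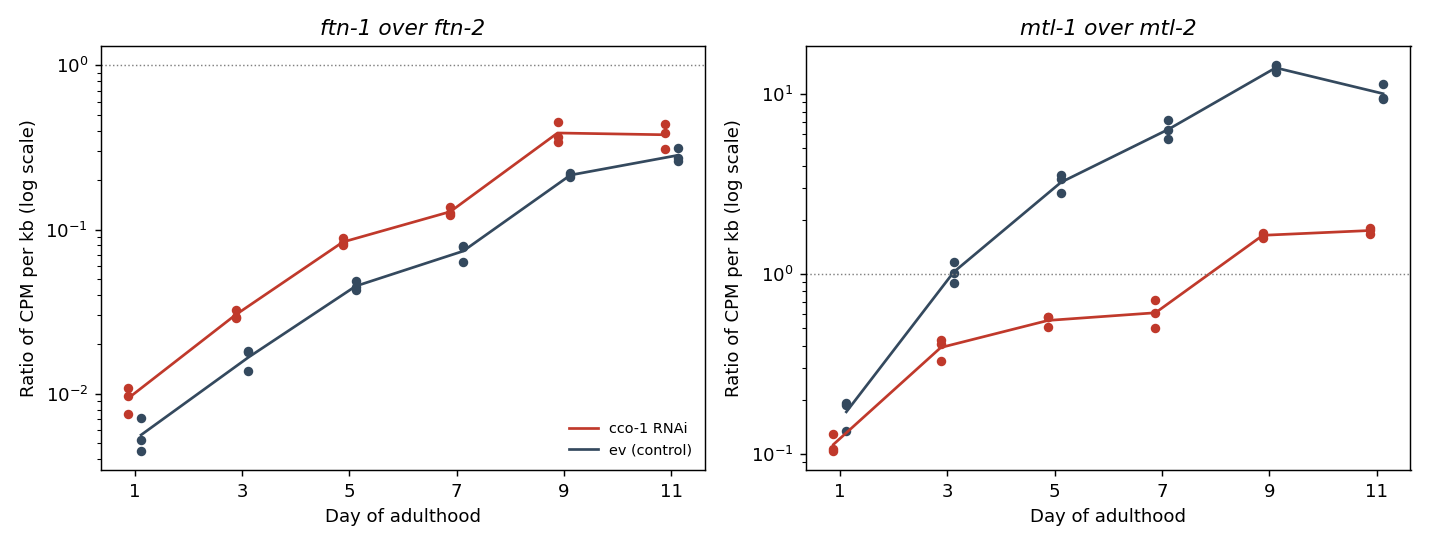
Ratio of CPM per kb of *ftn-1* to *ftn-2* (left) and of *mtl-1* to *mtl-2* (right) on log axes against day of adulthood, with 1 point for each library, lines through means of 3 libraries, *cco-1* RNAi in red, ev in dark blue and a dotted line at equal levels. The metallothionein ratio averaged 0.609 in *cco-1* RNAi worms and 6.38 in ev worms at day 7.

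Of the importers, *smf-3* was called at 2 days and *smf-1* at none. *smf-3* measured 1.47, 1.76 and 1.21 CPM in *cco-1* RNAi libraries of day 1, against 2.16, 2.21 and 2.68 CPM in ev libraries, without overlap but with a log2FC of -0.44 (adjusted p = 0.00496 from limma) that was not called. At day 9 it measured 4.95, 4.09 and 4.01 CPM in *cco-1* RNAi worms, against 2.1, 1.62 and 2.09 CPM in ev worms (log2FC 0.87, adjusted p = 1.96e-07). At day 11 it measured 5.83, 4.07 and 5.26 CPM in *cco-1* RNAi worms, against 1.66, 1.94 and 1.7 CPM in ev worms (log2FC 1.12, standard error 0.12, adjusted p = 4.94e-10).

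*smf-3* was thus below the ev libraries at day 1 and above them at days 9 and 11, with the groups apart at each of these days. The day 1 value passed the threshold without *cco-1* RNAi replicate 2 (-0.52) and with a pseudocount of 0.1 CPM (-0.64), the day 7 value of 0.42 without *cco-1* RNAi replicate 2 (0.51) and with that pseudocount (0.53), and the day 9 call ended with a pseudocount of 5 CPM (0.43). *smf-1*, at 10.1 to 10.7 CPM in *cco-1* RNAi worms and 11.3 to 11.8 CPM in ev worms of day 1, kept within a log2FC of -0.22 at day 5 and 0.18 at day 11. The standard error of these *smf-1* values was 0.068. Its libraries did not overlap between the RNAi groups at days 1, 5 and 11, with *cco-1* RNAi below ev at days 1 and 5 and above at day 11 (adjusted p = 0.112, 0.00481 and 0.0174 from limma), and the differences were under the fold threshold.

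The zinc transporters differed at day 1. *cdf-2* measured 4.58, 4.45 and 4.66 CPM in *cco-1* RNAi libraries, against 8.42, 8.33 and 7.79 CPM in ev libraries (log2FC -0.72, standard error 0.11, adjusted p = 1.94e-06 from limma). *ttm-1* measured 14.7, 12.8 and 14.4 CPM in *cco-1* RNAi libraries, against 24.7, 25.3 and 26.2 CPM in ev libraries (log2FC -0.82, standard error 0.072, adjusted p = 4.1e-12). In neither gene did the groups overlap. *cdf-2* also lay below without overlap at days 3, 5 and 7, with log2FC of -0.49, -0.66 and -0.38, of which day 5 was called.

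At later days the zinc transporters were not called. *cdf-2* measured 2.4, 1.73 and 2.33 CPM in *cco-1* RNAi worms of day 11, against 2.17, 1.33 and 1.21 CPM in ev worms, and the groups overlapped (log2FC 0.31, adjusted p = 0.0152 from limma). *ttm-1* measured 22.8, 23.8 and 24.2 CPM in *cco-1* RNAi worms of day 11, against 18.4, 20.6 and 20.3 CPM in ev worms, without overlap but with a log2FC of 0.25 that was not called. For *cdf-2*, the calls of days 1 and 5 ended with a pseudocount of 5 CPM (-0.46 and -0.44). The day 3 value passed without ev replicate 1 (-0.50) or *cco-1* RNAi replicate 3 (-0.51), and the day 7 value without *cco-1* RNAi replicate 1 (-0.50).

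Counted together, *cco-1* RNAi worms of day 1 had 4 of the 8 genes lower and 0 higher, where 4.46% of all genes tested were lower and 4.63% higher. The median log2FC was -0.59 for the 8 genes and -0.01 for all genes. At day 3, 1 gene was lower and 0 were higher, against 7.92% and 9.36% of all genes. At day 5, 2 were lower and 1 was higher, against 16.6% and 16.7%, and at day 7, 2 were lower and 1 was higher, against 13% and 11.6%. At day 9, 3 genes were higher and 1 was lower, against 9.44% and 8.69%. At day 11, 4 genes were higher and 1 was lower, against 15.1% and 13.3%, with a median of 0.71 for the 8 genes and -0.08 for all genes. The count at day 3 was between 1 and 3 with a single library left out, because 3 of the genes lay close to the threshold.

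**Figure D3:**
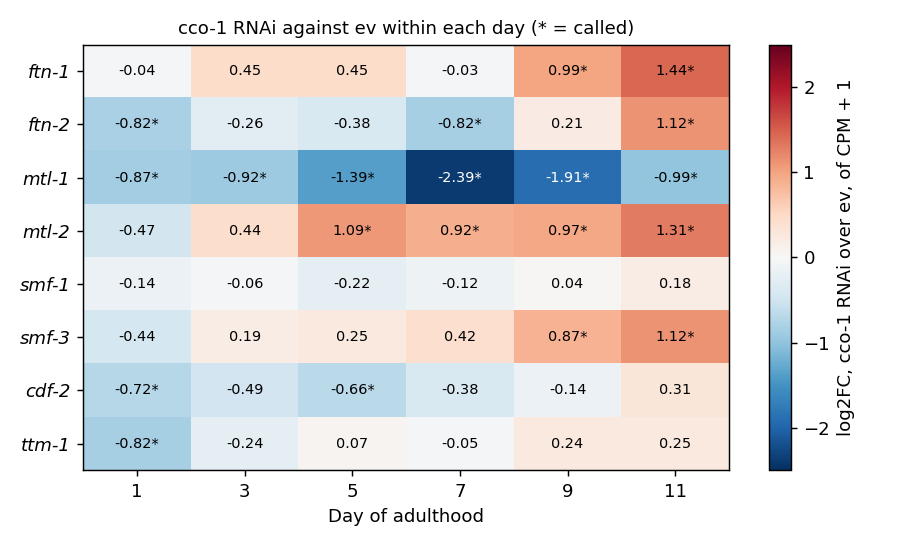
The log2FC of CPM + 1 of *cco-1* RNAi over ev for the 8 genes (down the page) at each day of adulthood (across), as numbers and colors, red for higher in *cco-1* RNAi worms, with an asterisk for a call at adjusted p below 0.05 and absolute log2FC above 0.5. *mtl-1* is called at all 6 days, with -2.39 at day 7, and the column of day 1 holds no higher call while that of day 11 holds 4.

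The changes with age were then compared with day 1 of the same RNAi group. Between day 11 and day 1, *ftn-1* was higher by a log2FC of 3.32 in *cco-1* RNAi worms and 1.84 in ev worms. *ftn-2* was lower, with -1.35 in *cco-1* RNAi worms and -3.28 in ev worms. *mtl-1* was higher by 2.52 in *cco-1* RNAi worms and 2.63 in ev worms. The 2 ferritins and the 2 metallothioneins thus each had 1 gene that was higher and 1 that was lower with age in both groups.

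*mtl-2* had a log2FC of -1.03 in *cco-1* RNAi worms and -2.81 in ev worms of day 11 against day 1, and *cdf-2* had -0.83 and -1.85 in these groups. *smf-1* was higher by 0.91 in *cco-1* RNAi worms and 0.59 in ev worms. *smf-3* was higher by 1.28 in *cco-1* RNAi worms, against a value of -0.27 in ev worms that was not called. *ttm-1* was higher by 0.72 in *cco-1* RNAi worms, against -0.35 in ev worms, also not called. Each value called here had an adjusted p of 1.15e-07 or less from limma. With a pseudocount of 5 CPM, the call of *smf-1* in ev worms (0.47) and that of *cdf-2* in *cco-1* RNAi worms (-0.42) ended. Of the 11 intestine markers, 1 was higher and 8 lower at day 11 than at day 1 in *cco-1* RNAi worms. In ev worms 0 were higher and 9 lower. In both groups 6 of 6 body wall muscle, 5 of 5 pharynx, 5 of 6 hypodermis, 5 of 6 sperm and 3 of 6 neuron markers were lower too. By contrast, 1 neuron marker was higher in *cco-1* RNAi worms and 1 sperm marker in ev worms. Of 8 germline markers, 4 were higher in *cco-1* RNAi worms and 3 in ev worms, and 0 were lower. Of 7 oocyte and eggshell markers, 6 and 3 were higher in these groups, and 0 and 2 lower. Of 5 tested embryo markers, 3 and 4 were higher in these groups, and 0 were lower. Of all genes, 34.1% were higher and 23.7% lower in *cco-1* RNAi worms, and 41.8% and 27.4% in ev worms. The germline counts of higher genes were near these shares. The part of tissue composition in the age changes was not tested.

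Of the 8 genes, 5 were higher and 3 lower at day 11 than at day 1 in *cco-1* RNAi worms, where 34.1% and 23.7% of all genes were. In ev worms 3 were higher and 3 lower, against 41.8% and 27.4% of all genes. At day 7 against day 1, 5 were higher and 1 was lower in *cco-1* RNAi worms, against 30.8% and 23.9% of all genes, and 3 were higher and 2 lower in ev worms, against 31.3% and 27% of all genes. The day 7 call of *ttm-1* in *cco-1* RNAi worms (0.60) ended with a pseudocount of 5 CPM (0.49). Changes with age were thus common among all genes, and these counts do not set the 8 genes apart.

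The difference between the age changes was tested as an interaction, with the ev change subtracted from the *cco-1* RNAi change. To day 11 it was positive and called for 6 of the 8 genes and negative for 0, against 17.2% and 18.1% of all genes. It was 1.93 for *ftn-2* (standard error 0.19, adjusted p = 6.54e-09 from limma), 1.78 for *mtl-2*, 1.56 for *smf-3*, 1.49 for *ftn-1*, 1.07 for *ttm-1* and 1.03 for *cdf-2*. For *mtl-1* it was -0.12 (adjusted p = 0.489). These values share the day 1 groups with the comparison at day 1. The lower day 1 levels of *ftn-2*, *cdf-2* and *ttm-1* in *cco-1* RNAi worms thus enter both. So do those of *mtl-2* and *smf-3*, which were lower at day 1 without overlap but not called. For *ttm-1* and *cdf-2* the log2FC between RNAi groups was -0.82 and -0.72 at day 1. At day 11 it was 0.25 and 0.31, neither of them called.

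To day 7 the interaction was positive and called for 3 genes and negative for 1, against 13.9% and 14.6% of all genes. The 3 were *mtl-2* with 1.39, *smf-3* with 0.86 and *ttm-1* with 0.77, and the other was *mtl-1* with -1.51 (standard error 0.14, adjusted p = 3.02e-11 from limma). *ftn-1* and *ftn-2* had values of 0.02 and -0.01 to day 7, with standard errors of 0.16 and 0.19. *mtl-1* was thus called to day 7 and not to day 11, *mtl-2* at both, and the ferritins to day 11 and not to day 7, while the difference between the 2 intervals was not tested. The *smf-3* call to day 7 ended with a pseudocount of 5 CPM (0.41).

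**Figure D4:**
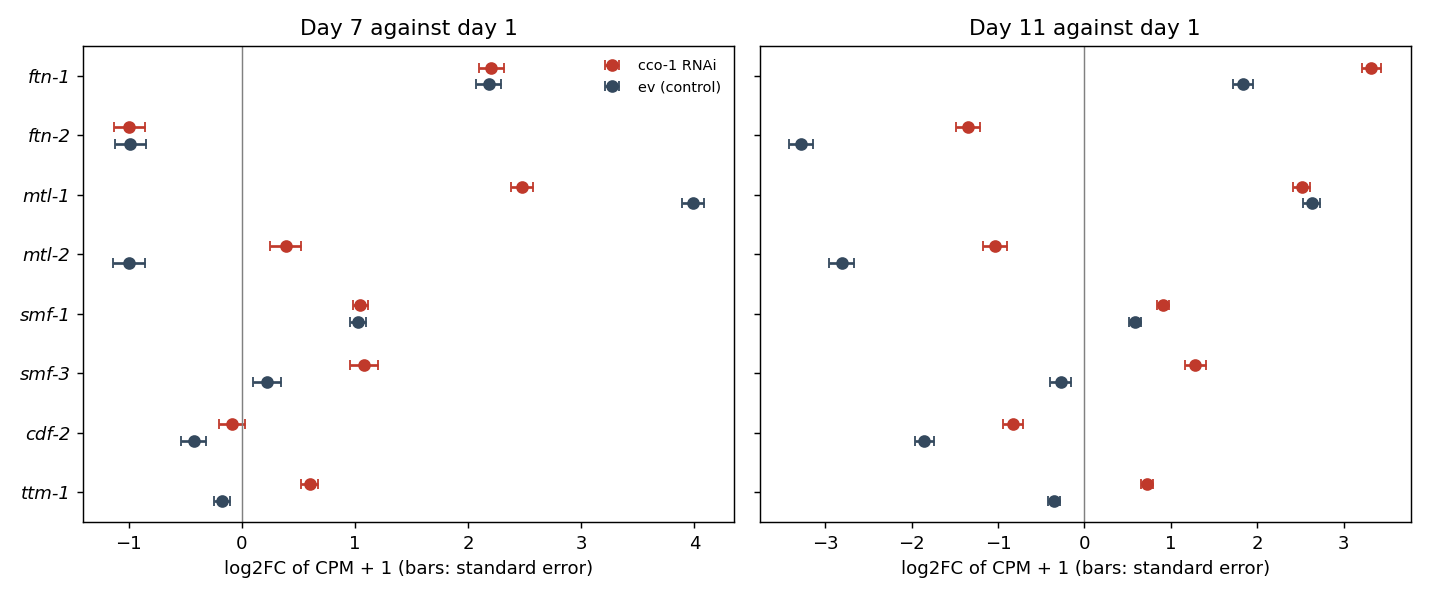
The log2FC of CPM + 1 (horizontal axis) of day 7 against day 1 (left) and day 11 against day 1 (right) for the 8 genes, with *cco-1* RNAi worms in red above ev worms in dark blue and bars of 1 standard error. At day 11, *ftn-2* stood at -1.35 in *cco-1* RNAi worms and at -3.28 in ev worms.

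Over the 12 groups, the highest group mean was 38.5 times the lowest for *mtl-1*, 15.6 times for *ftn-1*, 12.4 times for *mtl-2* and 9.95 times for *ftn-2*. It was 5.53 times for *cdf-2*, 3.42 times for *smf-3*, 2.37 times for *smf-1* and 1.82 times for *ttm-1*. When the groups were put in order of their means, the library ranges of neighbours overlapped in 5 of 11 pairs for each of *ftn-1*, *ftn-2* and *mtl-1*, in 7 for *mtl-2*, in 8 for *smf-1* and *cdf-2* and in 10 for *smf-3* and *ttm-1*. The order is therefore loose for the last 2, in which only *smf-3* between *cco-1* RNAi day 5 and ev day 7, and *ttm-1* between ev day 9 and *cco-1* RNAi day 1, had neighbours that did not overlap.

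Across the 12 group means of log2(CPM + 1), *ftn-2* ran most closely with *cdf-2* among the 8 genes (Pearson r = 0.887), and *ftn-1* ran against *ftn-2* (r = -0.693). *mtl-1* and *mtl-2* had an r of -0.357. The points share the age and RNAi of the groups, and the values are given as a description only. Among all tested genes whose highest group mean reached 10 CPM, those most like *ftn-1* were *Y77E11A.2*, *coel-1* and *hil-1* (highest r = 0.981). Those most like *ftn-2* were *C34H4.2*, *gln-3* and *dhs-3* (0.986), the gene most like *mtl-1* was *F59C12.4* (0.981), and those most like *mtl-2* were *T19D12.2*, *Y4C6B.7* and *clec-1* (0.986). For *smf-3* the highest r was 0.95, with *cpi-1*, and for *ttm-1* it was 0.905, with *T22F7.1*.

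The other genes of iron, heme, zinc, copper and cadmium handling were taken from lists, which hold the 8 genes too. Of 11 tested iron genes out of 13 listed, *cco-1* RNAi worms had 3 lower and 1 higher at day 1, and 0 lower and 3 higher at day 11, where 4.46% and 4.63% of all genes were lower and higher at day 1 and 13.3% and 15.1% at day 11. The 3 higher at day 11 were *ftn-1*, *ftn-2* and *smf-3*, and none of the other iron genes was called at that day. The median log2FC of the list was -0.07 at day 1 and 0.18 at day 11, against -0.01 and -0.08 for all genes. Besides *ftn-2*, the lower ones were the ferroportin genes *fpn-1.1* (log2FC -1.01) and *fpn-1.2* (-0.81), which encode iron exporters, and *aco-1*, the cytosolic aconitase, was higher (0.62). Of 19 zinc transporters, 3 were lower and 0 higher at day 1 (median -0.09), the third being *cdf-1* (-0.55), which encodes an exporter of zinc. At day 11, *zipt-2.1* (1.22) and *zipt-13* (1.41), of the ZIP family of zinc importers, were higher and *zipt-2.3* (-0.57), whose product releases zinc from gut granules, was lower (median of the list 0.07). Of 10 tested metallothionein and cadmium response genes, 3 were higher and 2 lower at each of days 1 and 11, with medians of 0.13 and 0.02. Of 6 copper genes 2 were higher and 0 lower at each of these days, with medians of 0.28 and -0.19. The genes behind these equal counts were not all the same at the 2 days. *mtl-2* was called at day 11 only. *pcs-1* averaged 16.4 CPM in *cco-1* RNAi worms and 9.42 CPM in ev worms of day 1, and 23.9 and 34.3 CPM in these groups at day 11. *sod-1* averaged 153 and 135 CPM at day 1, and 111 and 73.7 CPM at day 11.

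Of 12 regulators linked to these genes, 0 were higher and 2 lower at day 1 (median -0.05), against 4.63% and 4.46% of all genes, and 6 were higher and 1 lower at day 11 (median 0.49), against 15.1% and 13.3%. *hizr-1* averaged 2.47 ± 0.085 CPM in *cco-1* RNAi worms and 4.46 ± 0.27 CPM in ev worms of day 1 (SD, n = 3 each; log2FC -0.65, adjusted p = 5.92e-05 from limma), when *cdf-2*, *ttm-1* and *mtl-1* were lower too. At day 3 *hizr-1* was also lower in *cco-1* RNAi worms, at 2.87 ± 0.30 CPM against 4.74 ± 0.45 CPM in ev worms, without overlap. At day 5 it averaged 2.93 ± 0.15 and 2.64 ± 0.50 CPM in these groups, with overlap. At days 7, 9 and 11 *hizr-1* had log2FC of 0.17, 0.37 and 0.47, none of them called. *mtl-1* was called lower at each of these days, 3 to 11. *elt-2* averaged 18.8 ± 1.0 CPM in *cco-1* RNAi worms and 29.7 ± 1.18 CPM in ev worms of day 1 (log2FC -0.63), and 13.2 ± 0.97 CPM in *cco-1* RNAi worms and 6.29 ± 1.26 CPM in ev worms of day 11 (log2FC 0.98). *elt-2* is also 1 of the 11 intestine markers. *hif-1* had a log2FC of -0.01 at day 1 and 0.86 at day 11, where *ftn-1* and *smf-3* were both higher. The regulator *vhl-1* averaged 5.05 CPM in *cco-1* RNAi worms and 4.72 CPM in ev worms of day 1, with overlap. At day 11 it averaged 4.73 and 7.99 CPM in these groups, without overlap. The *hif-1* transcript does not measure HIF-1 activity, which is set by the stability of the protein, and whether any regulator acted on the 8 genes was not tested.

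**Figure D5:**
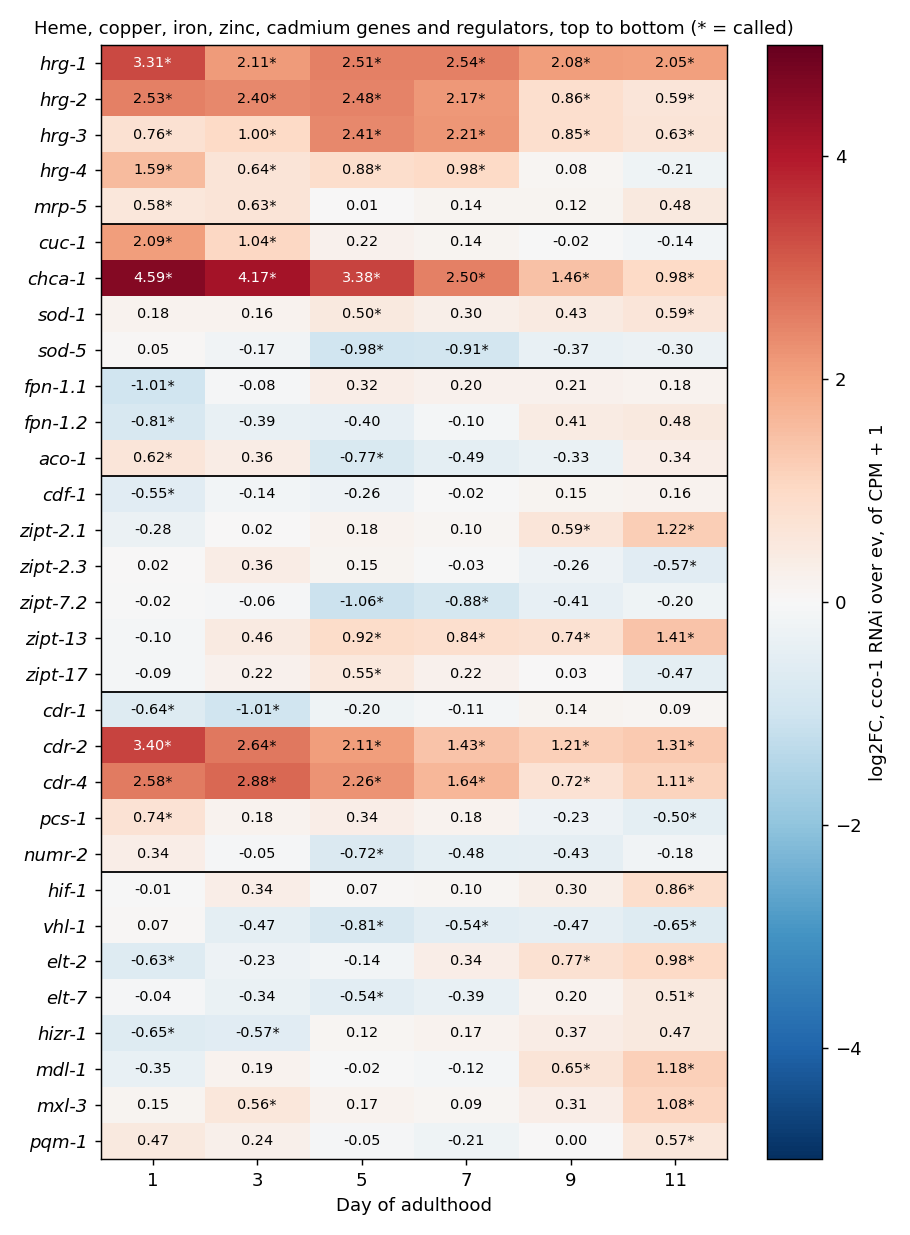
The log2FC of CPM + 1 of *cco-1* RNAi over ev at each day of adulthood (across) for the 31 of 56 tested list genes other than the 8 that were called at 1 or more days, in blocks divided by black lines for heme, copper, iron, zinc, cadmium and regulators from top to bottom, with an asterisk for a call. *hrg-1* is called at all 6 days, with 3.31 at day 1, and *elt-2* has -0.63 at day 1 and 0.98 at day 11.

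In the WBcel235 annotation, *ftn-1* (WBGene00001500) lies on chromosome V at 7546468-7547579, *mtl-1* (WBGene00003473) on V at 6691371-6691863 and *mtl-2* (WBGene00003474) on V at 14018270-14018673, each on the minus strand. *ftn-2* (WBGene00001501) lies on chromosome I at 3680180-3680927 and *ttm-1* (WBGene00012712) on III at 12952969-12966995, both on the minus strand. *smf-1* (WBGene00004876) lies on X at 6719669-6723066 and *cdf-2* (WBGene00011821) on X at 12464640-12466917, on the minus strand, and *smf-3* (WBGene00004878) on IV at 2618869-2625503 on the plus strand. None of the 8 shares exon bases with another annotated gene. The authors counted uniquely mapped reads only, so that reads fitting 2 genes of a pair equally well would be missing from both, and how many these were was not tested.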

How the data were processed

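RNA-seq of 36 whole-worm libraries was analysed from the deposited table. The authors mapped reads to WBcel235 with STAR (version 2.73a in the submitters' notes, which differs from the paper's methods), counted unique reads over exons without strand by htseq-count, and deposited values read here as normalized CPM. For the normalization, the paper's methods name limma-voom and the submitters' notes edgeR 3.24.3. These CPM values appear to have been quantile-normalized by the authors, since the 10th and 100th highest values are equal in all libraries, and they hold no depth. The authors' fold changes, p-values and gene set results, in the same table and a second one, were not used.

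Of 18949 genes, the 15713 that reached 1 CPM in 3 or more libraries were fitted as log2(CPM + 1) with limma 3.58.1 (R 4.3.3) in a model of 12 group means with 24 residual degrees of freedom and trended, robust variances (statmod 1.5.0). P-values were adjusted over all 15713 genes by Benjamini-Hochberg within each of 21 contrasts. The fit was tested on simulated data in which a gene had the same spread in all groups. The effect of the more variable groups on p-values was thus not tested. The 8 genes and the gene lists were chosen with earlier results of these data known. Named genes are the 8, *cco-1*, list genes called between RNAi groups or in the day 11 interaction, and for each of the 8 the genes with the highest Pearson r of the 12 group means. Of 70 listed metal and regulator genes, 68 were matched, 18 of them through WBcel235 gene IDs because the table uses older names. Alternatives were pseudocounts of 0.1 and 5 CPM, no filter or one of 5 CPM, median scaling, plain variances, fits on only the groups compared, a replicate block and each library left out.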

Additional observations from a re-analysis of the deposited data

Results flagged for a closer look

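In the test of the difference itself, the change from day 1 differed between *cco-1* RNAi and ev worms for these genes. To day 7, the *cco-1* RNAi change minus the ev change was -1.51 for *mtl-1* (2.48 in *cco-1* RNAi worms and 3.99 in ev worms), 1.39 for *mtl-2* (0.39 and -1.0 in these groups), 0.86 for *smf-3* (1.08 and 0.22) and 0.77 for *ttm-1* (0.60 and -0.17), all as log2FC of CPM + 1 from limma. To day 11, it was 1.93 for *ftn-2*, 1.78 for *mtl-2*, 1.56 for *smf-3*, 1.49 for *ftn-1*, 1.07 for *ttm-1* and 1.03 for *cdf-2*. In *smf-3* and *ttm-1* the 2 age changes to day 11 had opposite signs, of which the ev change was not called in either gene. The summed intestine markers also moved with this contrast, at 398 to 675 CPM in *cco-1* RNAi worms and 152 to 171 CPM in ev worms of day 11. Without *cpr-1* the sums were 220 to 283 and 113 to 129 CPM. To day 11, 7 of 11 intestine markers had a positive called difference and 2 a negative one (median 0.60). Of all genes, 17.2% were positive and 18.1% negative. For body wall muscle 6 of 6 were positive (median 1.99) and for pharynx 5 of 5 (0.70), while for hypodermis 2 were positive and 3 negative. For oocyte and eggshell 4 of 7 were positive, for neurons 3 of 6 and for germline 3 of 8, with 0 negative in each. For sperm 1 of 6 was positive and 1 negative. Of 5 tested embryo markers, 0 were positive and 2 negative. The part of tissue composition in these values was not tested.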

How the results depend on the processing

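Between RNAi groups and with age, 96 values of the 8 genes were recomputed. None changed its call with no filter, median scaling, plain variances or fits on only the groups compared, nor, for the 84 values that remain without *smf-3*, with a filter of 5 CPM. With a pseudocount of 0.1 CPM, 5 values passed the threshold in addition, and 3 genes in place of 1 were called at day 3. With a pseudocount of 5 CPM, 7 calls ended, in *cdf-2*, *smf-3*, *ttm-1* and *smf-1*. With single libraries left out, no call ended, 12 refitted values passed in addition, and the number of genes called at day 3 was 1 to 3. Values that changed sign were close to 0 and not called. With libraries left out these were *ftn-1* at day 1 (-0.142 to 0.071) and at day 7 (-0.096 to 0.013), and the interactions to day 7 of *ftn-1* (-0.096 to 0.117), *ftn-2* (-0.034 to 0.044) and *smf-1* (-0.028 to 0.065). With a pseudocount of 5 CPM they were the day 7 interactions of *ftn-1* (-0.001) and *ftn-2* (0.005), and with 0.1 CPM the day 11 interaction of *mtl-1* (0.032). The causes were not tested. With a replicate block the calls of the 8 genes were those without it, with 4 called at day 1 and 5 at day 11. Within a day, same-numbered libraries of the 2 RNAi groups correlated at -0.138 to 0.207 in their deviations, so that no pairing between RNAi groups was seen. Whether same-numbered libraries of different days are linked was not tested. In *ftn-1*, *ftn-2*, *cdf-2* and the summed intestine markers, the *cco-1* RNAi replicates had the same order at days 9 and 11, so these days may not be independent. Depth is unknown, which limits what can be said of *smf-3*, *cdf-2* and early *ftn-1*.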

Other observations

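Most heme transport genes and 2 of 6 copper genes were higher in young *cco-1* RNAi worms while the ferritins, metallothioneins and zinc transporters were not. Of 6 tested heme transport genes, 5 were higher and 0 lower at day 1, where 4.63% of all genes were higher, with a median log2FC of 1.18 for the list and -0.01 for all genes. *hrg-1*, which encodes a lysosomal heme transporter of the intestine, averaged 44.5 ± 2.69 CPM in *cco-1* RNAi worms and 3.61 ± 0.26 CPM in ev worms of day 1 (SD, n = 3 each; log2FC 3.31, adjusted p = 4.46e-24 from limma), and its log2FC was 2.05 at day 11. *hrg-4*, which encodes a heme importer of the gut surface, averaged 9.2 ± 1.37 CPM in *cco-1* RNAi worms and 2.38 ± 0.16 CPM in ev worms of day 1 (log2FC 1.59), and had a log2FC of -0.21 at day 11 that was not called.

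*chca-1*, which encodes a copper uptake transporter and is named *F58G6.9* in the table, averaged 123 ± 1.98 CPM in *cco-1* RNAi worms and 4.17 ± 0.44 CPM in ev worms of day 1 (SD, n = 3 each; log2FC 4.59, adjusted p = 8.23e-29 from limma). The copper chaperone gene *cuc-1* averaged 87.6 ± 5.16 CPM in *cco-1* RNAi worms and 19.8 ± 0.67 CPM in ev worms of day 1, and 18.5 ± 0.95 and 20.4 ± 1.1 CPM in these groups at day 11. The *cco-1* RNAi change to day 11 minus the ev change was -3.61 for *chca-1* and -2.22 for *cuc-1*. Among cadmium-responsive genes, *cdr-2* had a log2FC of 3.40 and *cdr-4* of 2.58 at day 1, whereas *cdr-1* had -0.64.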
